A study of Mus musculus with 4 samples.

Results

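Dense clusters of distal accessible regions in mouse natural killer (NK) cells were described from DNase-seq, which cuts open chromatin with the enzyme DNase I and sequences the cut ends. All 4 libraries were made from primary NK cells of adult female B6CASTF1/J mice, an F1 strain, at an age of 2 months, and no treatment is named. They are replicates of 1 group, and the design holds no contrast between conditions. Each replicate has a biosample of its own but the donor identifier is common to all, and neither tissue nor sorting is named, so the spread over the libraries may be partly technical. Positions are on mm10.

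The members were chosen by measured values, namely peak presence. Peaks of the 4 libraries that touched were merged into 75963 regions on the autosomes, and 35744 of these had a peak in 3 or more libraries (recurrent). A recurrent region was distal if it lay more than 1 kb from every 5' end of a protein-coding transcript in GENCODE, which left 21020. Neighbours with gaps of at most 12.5 kb were chained, and chains of 5 or more regions were kept. This gave 2346 regions in 367 chains, 11.2% of the distal recurrent regions. The number and density of the chains follow from the rule and are given as a description.

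Enhancers are stretches of DNA that bind transcription factors and raise transcription of genes at a distance, and they are often open to DNase I in the cells that use them. Genes that define a cell type are often flanked by several such elements, and dense groups of them have been called super-enhancers or stretch enhancers on the basis of histone marks or cofactors. No such mark was measured here, so the chains are called only chains of accessible regions. A chain is named for the protein-coding gene nearest to most of its regions, which need not be the gene it acts on.

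The strongest region of 5 named chains held a motif match inside a DNase footprint, a short protected stretch within a peak, that was found in at least 3 libraries. Each is shown because it lets the letters under the footprint be read. The sequences are the reference genome on the forward strand, with the motif match in capitals. They come from the Rplp1 chain (chr9:61679821-61680100, intergenic, an E-box, the site type of E proteins and ZEB factors), the S1pr1 chain (chr3:115692400-115692699, intergenic, a RUNX match), the Rnase12 chain (chr14:51064801-51065060, intergenic, a CTCF core), the M6pr chain beside Klrg1 (chr6:122304381-122304600, intergenic, a CTCF core) and the Tigit chain (chr16:43698942-43699241, intergenic, a T-box match). A match is a description of the letters and not evidence of binding.
Rplp1 chain: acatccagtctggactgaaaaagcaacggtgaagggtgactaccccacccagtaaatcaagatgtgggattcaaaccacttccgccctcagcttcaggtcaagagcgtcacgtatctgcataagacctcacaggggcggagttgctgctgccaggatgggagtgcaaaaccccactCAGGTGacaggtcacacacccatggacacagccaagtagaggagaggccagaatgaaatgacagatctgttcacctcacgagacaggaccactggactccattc
S1pr1 chain: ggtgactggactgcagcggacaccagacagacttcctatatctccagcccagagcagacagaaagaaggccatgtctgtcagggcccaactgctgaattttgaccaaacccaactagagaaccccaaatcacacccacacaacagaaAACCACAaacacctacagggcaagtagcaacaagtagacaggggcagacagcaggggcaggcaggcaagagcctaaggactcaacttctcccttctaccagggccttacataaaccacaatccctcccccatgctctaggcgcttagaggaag
Rnase12 chain: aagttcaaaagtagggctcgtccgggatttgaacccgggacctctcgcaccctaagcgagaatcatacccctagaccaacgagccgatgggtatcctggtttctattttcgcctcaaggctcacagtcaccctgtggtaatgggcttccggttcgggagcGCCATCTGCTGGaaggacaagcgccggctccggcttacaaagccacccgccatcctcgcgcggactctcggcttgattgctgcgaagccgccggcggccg
M6pr chain: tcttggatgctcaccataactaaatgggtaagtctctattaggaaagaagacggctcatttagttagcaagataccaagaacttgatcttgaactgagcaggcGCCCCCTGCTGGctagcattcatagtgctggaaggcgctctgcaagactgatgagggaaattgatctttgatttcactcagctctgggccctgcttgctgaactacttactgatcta
Tigit chain: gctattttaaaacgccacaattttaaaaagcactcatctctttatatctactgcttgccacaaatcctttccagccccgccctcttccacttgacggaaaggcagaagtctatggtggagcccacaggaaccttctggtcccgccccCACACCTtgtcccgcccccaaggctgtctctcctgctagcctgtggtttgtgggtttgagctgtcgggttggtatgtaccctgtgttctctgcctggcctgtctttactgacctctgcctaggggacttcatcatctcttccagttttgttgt

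The peak signal in these regions, in the unit of the authors' peak lists, differed by library. The S1pr1 region had a signal of 1.69, 1.36, 6.78 and 1.84 in replicates 1 to 4, and the Tigit region 2.08, 1.94, 5.47 and 2.22. Both were highest in replicate 3, with the other libraries close together. These values are not divided by a library median, and the median signal of distal peaks outside the chains was also highest in replicate 3, at 1.5. The M6pr region had 2.69, 2.70, 4.46 and 2.02, and the Rplp1 region 4.03, 5.14, 9.93 and 5.49. The Rnase12 region, which also overlaps a tRNA gene, was the strongest of the 5 at 12.7, 14.1, 17.8 and 11.5.

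Replicate 3 had the most peaks over all chromosomes listed, 69168, against 44113, 47496 and 36285 in replicates 1, 2 and 4. The number of reads behind the signal is not in the files, so the depth is unknown and no counting interval is given. To compare a chain between libraries, its median region signal was divided by a median of the same library, here called the relative signal. The divisor was the median of all distal recurrent regions with a peak in that library, whereas a missing peak counted as 0 in the chain's median. Of distal recurrent regions outside the chains, 95.8%, 97.9%, 99.2% and 71.9% had a peak in replicates 1 to 4. The effect of this on the relative signal, chiefly of replicate 4, was not tested. The labelled cell type was checked on genes with a recurrent region within 1 kb of a transcript start. Over all autosomal protein-coding genes 54.1% had one. Among NK receptors and adaptors 21 of 30 (70.0%) had one, including Ncr1, the gene of the activating receptor NKp46. Klrb1c, Klrd1, Klrg1 and Klrk1 were among the receptor genes without one. Cytotoxic effectors and secreted factors had 20 of 25, without Gzma or Tnf. NK transcription factors had 28 of 31, without Tbx21, and cytokine receptors and trafficking genes 19 of 25. Among genes of other tissues 4 of 20 had one. B cell genes had 16 of 24 (66.7%), Pax5, Ebf1 and Ms4a1 among them, and T cell genes 12 of 23 (52.2%), with Cd3d and Cd3g but not Cd3e, Cd4 or Cd8a. Myeloid and dendritic cell genes had 10 of 24, without Csf1r, Lyz2 or S100a8. The shares of B cell and T cell genes were thus as near to that of all genes as the share of NK receptors or nearer, and none of these differences was tested. The part of open chromatin from other cells in the results below was not tested.

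Chains covered 8.32 Mb in all. The median chain held 6 regions over 21.2 kb, and spans ran from 3.4 to 78.3 kb. There were 156 chains of 5 regions, just inside the limit, and 382 of 4, just outside. Regions in chains of 5 had a median signal (mean over libraries, 0 without a peak) of 1.58 and 74.2% had a peak in all 4 libraries, against 1.39 and 73.7% in chains of 4. The gap limit fell in a smooth part of the distribution, with 148 gaps in the last 500 bp below the limit and 149 in the first 500 bp above it. Within chains the median gap was 2680 bp, against 24600 bp between all neighbouring distal regions, as the rule requires. Only 25 chains held 10 or more regions.

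Chained regions were more strongly accessible than other distal recurrent regions in each library. The median peak signal was 1.55 against 1.01 in replicate 1, 1.66 against 1.06 in replicate 2, 2.81 against 1.5 in replicate 3 and 1.46 against 0.884 in replicate 4. The ratio was 1.66 ± 0.152 (SD, n = 4), higher in 4 of 4 libraries. An exact two-sided sign-flip permutation test of the log2 ratio gave p = 0.13, the smallest that 4 libraries allow (rounded), so 0.05 could not be reached. The order single regions, chains of 2 to 4, chains of 5 or more held in every library. In replicate 1, for example, the medians were 0.905, 1.12 and 1.55. Signal and peak presence come from the same reads, so the signal is not independent of the rule, although the other distal regions had met the same presence rule.

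**Figure D1:**
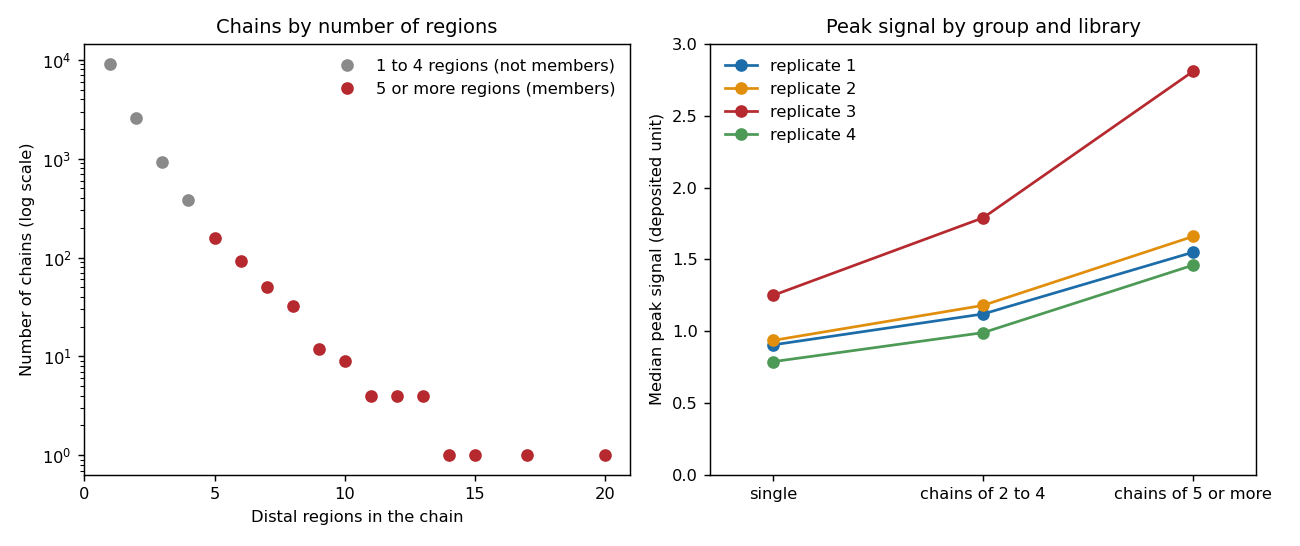
Left, number of chains (log scale) against the distal regions in the chain, with the 367 chains of 5 or more in red. Right, median peak signal of single distal regions, of regions in chains of 2 to 4 and of regions in chains of 5 or more, 1 line per library; every line climbs, and replicate 3 lies highest, reaching 2.81.

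A chain was not a row of equal peaks. The strongest region exceeded the weakest by a median factor of 5.26, from 1.30 to 34.3 over the chains, and held a median of 33.2% of the chain's summed signal. The SD of log2 signal was 0.97 within chains, 1.07 over all chained regions and 1.01 over other distal regions. Neighbours in a chain were thus only slightly more alike than chained regions at large.

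Chained regions had a peak in all 4 libraries in 75.8% of cases, against 64.8% of other distal regions. Most of this difference lay in replicate 4, the library with fewest peaks, where 85.5% of chained and 71.9% of other regions had a peak. In replicate 1 the order was the other way, with 93.3% against 95.8%. Replicates 2 and 3 had a peak in 98.1% and 98.8% of chained regions and in 97.9% and 99.2% of the others.

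Footprints come from a separate deposited list that the rule did not use. A footprint in 3 or more libraries was found in 86.6% of chained regions, against 81.3% of other distal recurrent regions. For each library, a share was also taken over the regions with its peak, and its footprints counted anywhere in the merged region. This share was 88.9% against 86.4% in replicate 1 and 90.6% against 88.3% in replicate 2. In replicate 3 it was 95.9% in both kinds, and in replicate 4 it was 91.2% against 86.0%. The difference was 2.47 ± 2.13 percentage points (SD, n = 4), higher in 3 of 4 libraries, with p = 0.25 in the exact sign-flip permutation test. The difference was therefore about the size of the spread between libraries. It was -0.89 points with the authors' shorter peak list and -0.487 points with the same number of strongest peaks per library, so its direction depended on the peaks used.

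At like signal the direction turned. The distal recurrent regions with a peak in a library were split into 5 equal bins by its signal, a comparison chosen after seeing the data. Averaged over the bins, the chained regions held a footprint less often by 5.86, 5.0, 3.65 and 4.12 percentage points in replicates 1 to 4. The mean difference was -4.66 ± 0.978 points (SD, n = 4), lower in 4 of 4 libraries, with p = 0.13 in the exact sign-flip permutation test, again the smallest possible. In the middle bin the shares were 88.7% against 94.0% in replicate 1 and 90.9% against 97.6% in replicate 3. In the highest bin they nearly met, at 98.2% against 99.5% in replicate 1 and 99.8% against 99.7% in replicate 3. A peak in all 4 libraries, in 5 bins of the signal averaged over libraries from lowest to highest, was found for 9.6%, 21.9%, 59.2%, 90.2% and 99.4% of chained regions and for 9.61%, 44.6%, 83.1%, 97.9% and 99.9% of the others. That average counts a missing peak as 0, so these bins are partly set by presence itself.

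**Figure D2:**
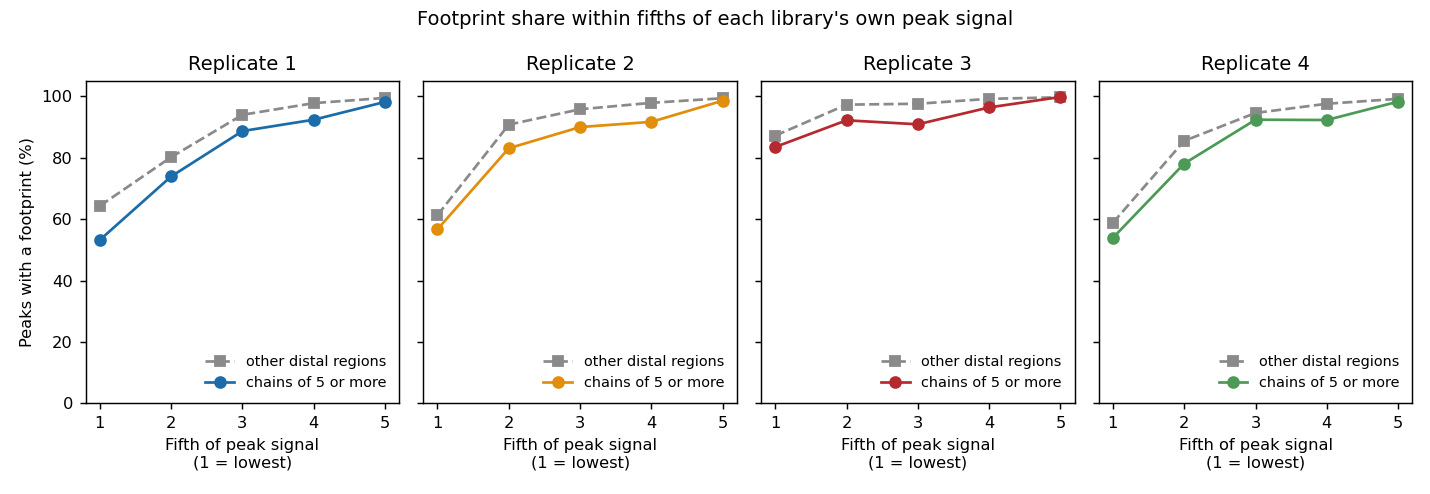
Share of regions with a peak in the library that hold its footprint (%) against the bin of peak signal (5 equal bins, lowest first). Chained regions are coloured circles and other distal recurrent regions grey squares, 1 panel per replicate. Chained regions lie below the others in all bins except the highest bin of replicate 3, where the shares are 99.8% and 99.7%.

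Chained regions lay mostly outside exons. Placed by their midpoint, 53.5% were intergenic and 42.7% intronic, against 49.2% and 45.2% of other distal regions. Only 1.96% had the midpoint in a coding exon, against 2.90%. Their median width was 280 bp against 240 bp and their median GC content 52.7% against 51.3%. A transcript start of a long noncoding RNA lay within 100 bp of 2.09%, close to the 2.42% of other distal regions. A near-identical copy elsewhere in the reference, at 95% identity or more over at least 80% of the region, was found for 1.58%, against 1.91%. Most chained regions, 83.0%, lay within 50 kb of a protein-coding transcript start, and 48 chains lay wholly beyond 50 kb. In 117 chains a protein-coding start fell inside the span.

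The 367 chains had 346 leading genes. Of these, 283 (81.8%) had a recurrent region within 1 kb of a transcript start, against 54.1% of all 20780 autosomal protein-coding genes. The genes nearest to single distal regions had one in 67.4% of cases, and those nearest to chains of 2 to 4 in 71.6%. The share thus increased from single regions to chains, and all 3 shares were above that of all genes.

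Matches to 15 short motifs were counted on both strands in the central 150 bp. In percentage points, the CTCF core differed most among them between chains and single regions. CTCF is the insulator protein that anchors chromatin loops. Its core was found in 12.7% of chained regions (exact binomial 95% interval 11.3 to 14.1%, counting error only), 19.1% of regions in chains of 2 to 4 and 27.0% of single distal regions. Over all 75963 merged regions the share was 10.7%. The share was lower in chains than in other distal regions both below the median signal, at 12.3% against 24.1%, and above it, at 12.8% against 21.7%.

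AP-1 sites (TGANTCA), bound by Jun and Fos proteins, went the other way with 8.44%, 7.53% and 6.05% in the same order. Against other distal regions this held above the median signal, at 9.71% against 7.52%, while below it the shares were 4.71% and 6.16%. The KLF letters (CCACACCC) were found in 3.45%, 2.68% and 2.07%, and NF-kB letters (GGGANTTCC) in 1.49%, 0.991% and 0.751%. STAT letters (TTCCNGGAA) were found in 0.767%, 0.559% and 0.359%. The shares of the RUNX, ETS and T-box letters differed little in proportion between the kinds of region: RUNX (TGTGGTT) 8.53%, 8.62% and 8.56%, ETS (AGGAAGT) 11.8%, 11.6% and 10.6%, and T-box (AGGTGTG) 4.65%, 4.40% and 4.32%. A control of similar length, the first part of the NRSF site (TCAGCACC), was found in 1.45%, 1.35% and 0.947%. An ordered rise was thus also seen for letters picked as a control. In proportion it was larger than that of AP-1 and smaller than that of KLF, NF-kB or STAT. In percentage points it was larger than that of STAT and smaller than that of AP-1, KLF or NF-kB. Over all merged regions the shares were 7.23% for RUNX, 9.22% for ETS, 4.19% for T-box and 6.25% for AP-1.

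**Figure D3:**
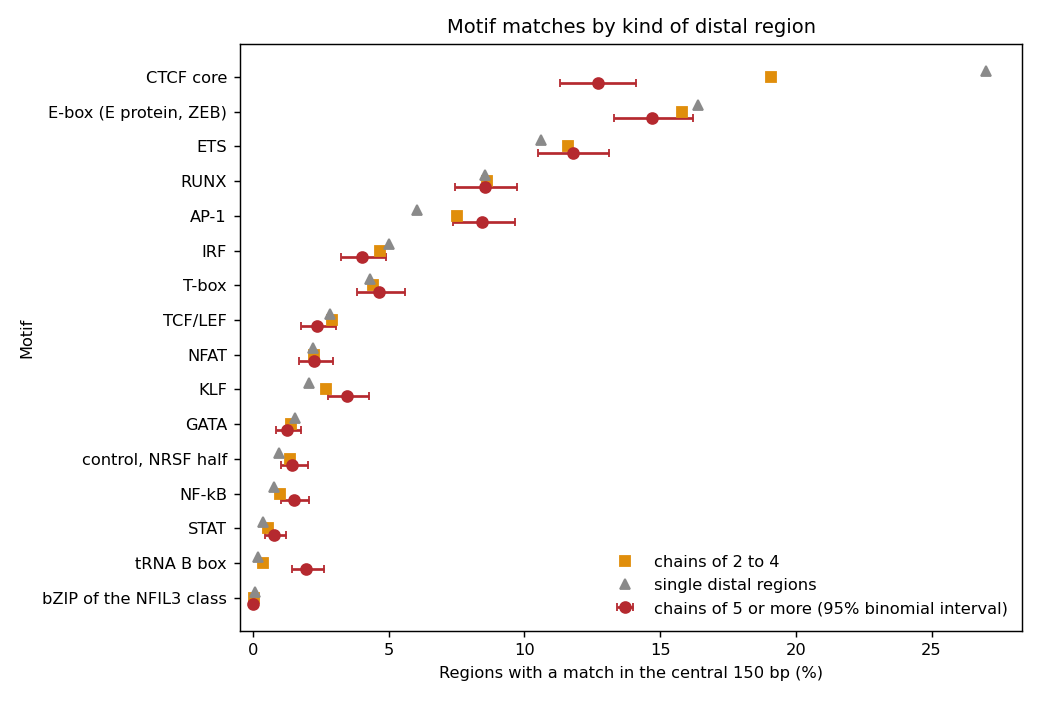
Share of regions with a match in the central 150 bp (%), by motif, for chains of 5 or more (red, with exact binomial 95% intervals), chains of 2 to 4 (orange) and single distal regions (grey). The CTCF core falls from 27.0% in single regions to 12.7% in chains, and the RUNX points coincide.

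The chains with most regions were of several kinds. The first by count, the Sfi1 chain (chr11:3123221-3181600), held 20 regions over 58.4 kb, 16 of them in introns, near the gene of a centrosomal protein. Copies elsewhere in the reference were found for 5 of its regions. Its relative signal was 1.80, 1.74, 0.822 and 2.73 in replicates 1 to 4, lowest in replicate 3, unlike most chains. The second, the Vmn1r2 chain (chr4:3050101-3071680), held 17 weak regions nearest to a vomeronasal receptor gene, and its relative signal was 0.233, 0.236, 0 and 0.286. Replicate 3 had no peak in any of the 17, so these regions stood in the set on the other libraries alone. Whether read mapping in repeated sequence bears on these chains was not tested.

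The Smndc1 chain (chr19:53394521-53443600) had 15 regions over 49.1 kb, with a median signal of 3.36, and 14 were found in all 4 libraries. Its strongest region had 5.91, 7.64, 12.4 and 8.83 in replicates 1 to 4. The S1pr4 chain, beside a sphingosine-1-phosphate receptor gene of lymphocytes, was the longest at 78.3 kb and shared its 14 regions among 5 nearest genes. The Nanos3 chain (chr8:84186541-84210700) held the strongest chained region of all, with 14.2, 19.5, 26.9 and 19.4, a mean of 20 ± 5.23 (SD, n = 4). Its other 11 regions had mean signals from 1.24 to 7.22, so a single region stood out. The Pik3ap1 chain, in the gene of the signalling adaptor BCAP, had all 13 regions in introns. The Spdye4c, Rplp1 and Irf2bpl chains lay far from any protein-coding start, at 161169, 206322 and 43971 bp at the nearest. A region of the first of these lies within 100 bp of the start of the long noncoding RNA Gm14005.

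By median region signal, the Tspoap1 chain (chr11:87744941-87771280) was among the highest, at 4.5 over 10 regions, all of them in all 4 libraries. It holds the hairpins of Mir142 and Mir142b, a microRNA locus of blood cells. The region over the hairpins was among the weaker, with 1.73, 2.16, 3.20 and 2.23. The strongest had 7.69, 10.1, 14.8 and 12.2 and lies within 100 bp of a start of the long noncoding RNA Mir142hg. The Ubald2 chain had a median of 4.56, the Rin3 chain 4.93 and the Rnase12 chain 4.65.

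NK cells kill infected and transformed cells with perforin and granzymes and secrete interferon gamma and chemokines. Their receptors balance activation and inhibition, and T-bet, Eomes, RUNX3 and STAT4 are among the factors that set this programme. A gene was counted as having a chain if a chained region lay in its body or within 25 kb. This held for 3.33% of 20780 protein-coding genes. It held for 29 of 111 genes (26.1%) in 4 lists of NK genes, which were chosen with earlier results known. Neighbouring genes share chains, as Ccl3 with Ccl4 and Lta with Tnf. Values given for a chain cover all its regions, also those beyond 25 kb of the listed gene. Only 1 chained region lay in reach of Klf2, 2 each in reach of S1pr1 and Il12rb1, and 3 in reach of Ifnar1. By list, the counts were 4 of 30 receptors and adaptors, 8 of 25 cytotoxic effectors and secreted factors, 9 of 31 transcription factors and 8 of 25 cytokine receptors and trafficking genes. Other lists gave 2 of 23 T cell genes, 2 of 24 B cell and plasma cell genes, 1 of 24 myeloid and dendritic cell genes and 0 of 20 genes of other tissues. Cd247 and Lck, the T cell genes with chains, also act in NK cells, and Bach2 is on both the NK and the B cell list. In the gene body alone the NK count was 11 of 111 (9.91%), against 1.45% of all genes. By list it was 0 of 30 receptors and adaptors, 2 of 25 effectors, 6 of 31 transcription factors and 3 of 25 cytokine receptors and trafficking genes. For T cell genes it was 2 of 23 (8.7%), close to the pooled NK share, and for B cell and plasma cell genes 1 of 24 (4.17%). Neither the myeloid and dendritic cell list nor the list of other tissues had any.

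Among receptors, the NK1.1 gene Klrb1c had 2 chains. The first (chr6:128790561-128808828) held 8 regions upstream of Klrb1c, in introns of the overlapping gene Gm44511, with a relative signal of 1.80, 1.85, 3.34 and 1.94. Its strongest region, 13806 bp from the start, had 9.19, 10.6, 15.2 and 10.1. The second (chr6:128753941-128767280), 21206 bp or more from the start, had a median signal of 5.57, the highest of all chains named here, and a relative signal of 4.07, 5.06, 4.66 and 5.15. In each chain 3 regions had a near-identical copy within 200 kb, so the signal of these regions is uncertain. Il2rb, the shared beta chain of the IL-2 and IL-15 receptors, lay within reach of the Tmprss6 chain, with 7 regions and a relative signal of 3.40, 2.84, 2.97 and 2.43, and of the C1qtnf6 chain, with 6 regions. Over both chains together, 7 regions lay in the Il2rb body or within 25 kb of it.

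Klrg1, an inhibitory receptor of mature NK cells, was reached by the M6pr chain (chr6:122284881-122304600). The region 1999 bp from the Klrg1 start had no peak in replicate 1 and signals of 0.946, 2.84 and 0.807 in replicates 2 to 4. The next, 10939 bp away, had no peak in replicate 1 and 0.886, 4.78 and 1.45 in the others. Only 2 of the 5 regions had a peak in all libraries, and the chain was lost under 6 of 15 other settings of the rule, among them the shorter peak list and gaps of at most 8 kb. The relative signal was 0, 0.845, 2.39 and 1.13, the highest ratio of replicate 3 to the median of the other libraries of any chain, 2.82. The CTCF-core region printed above belongs to this chain and varied less, as its values show.

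Among effectors, Prf1, the perforin gene, had the Prf1 chain (chr10:61301081-61344300) of 9 regions and lay within reach of the Adamts14 chain of 7. The Prf1 chain was lost with the shorter peak list. Its strongest region, 34820 bp from the start, lies beyond 25 kb of the Prf1 body, in an intron of another gene. This region had 2.84, 2.60, 8.27 and 2.65, high in replicate 3 and nearly equal in the others. Its neighbour at 36400 bp had 2.93, 2.59, 3.88 and 1.54, so replicate 3 stood out far less there. The Ccl5 chain (chr11:83534174-83569541) held 11 regions near this chemokine gene. Its strongest region, 4543 bp from the start, had 4.75, 4.74, 12.2 and 5.38. The Lst1 chain, over the genes of TNF and lymphotoxins, had 10 regions with a relative signal of 1.77, 2.35, 2.29 and 1.94. The Fasl chain had 1.78, 2.13, 2.95 and 3.12, and the Srgn chain, at the gene of the granule proteoglycan serglycin, 0.922, 1.15, 1.40 and 1.12.

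Among transcription factors, Tbx21, which encodes T-bet, had the Tbx21 chain (chr11:97101801-97147020) of 11 regions. Mean signals ran from 1.55 to 3.76, so no region dominated. The strongest, in an intron of Tbkbp1, had 2.41, 3.29, 5.81 and 3.52. A region 15073 bp from the Tbx21 start had no peak in replicate 1 and 1.78, 4.34 and 1.38 in the others. The relative signal was 1.97, 2.43, 2.69 and 1.78. The Stat4 chain (chr1:52004181-52041020), 8 regions in introns of this mediator of IL-12 signalling, had 0.761, 0.759, 1.35 and 0.801, with replicate 3 apart from the other 3. It was lost with the shorter peak list and with gaps of at most 8 kb. Its strongest region had 4.04, 4.45, 10.1 and 3.75, while the region 3863 bp from a Stat4 start had 3.78, 3.19, 3.55 and 1.17. The Ikzf1 chain, in the gene of the lymphoid factor Ikaros, had 1.39, 1.31, 1.56 and 1.19. The Klf2 chain had 1.59, 1.81, 2.31 and 1.61 and the Nfil3 chain 1.81, 2.14, 3.41 and 2.37. Bach2, a repressor that restrains lymphocyte maturation, had 2 chains, one of 7 regions at 0.911, 1.07, 1.44 and 1.27 and one of 5 at 3.78, 4.17, 4.89 and 4.27.

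Among cytokine receptors and trafficking genes, the Jak1 chain, in the gene of a kinase shared by many cytokine receptors, had 9 intronic regions and a relative signal of 0.989, 1.04, 1.32 and 0.929. The S1pr1 chain, 22372 bp or more from the gene of a receptor for lymphocyte egress, had 1.24, 1.25, 1.92 and 1.49. The Ifnar1 chain had 1.38, 1.51, 1.5 and 1.42, nearly equal in all libraries. The Kcnn1 chain, within reach of Il12rb1, had 2.54, 2.39, 2.14 and 1.87.

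**Figure D4:**
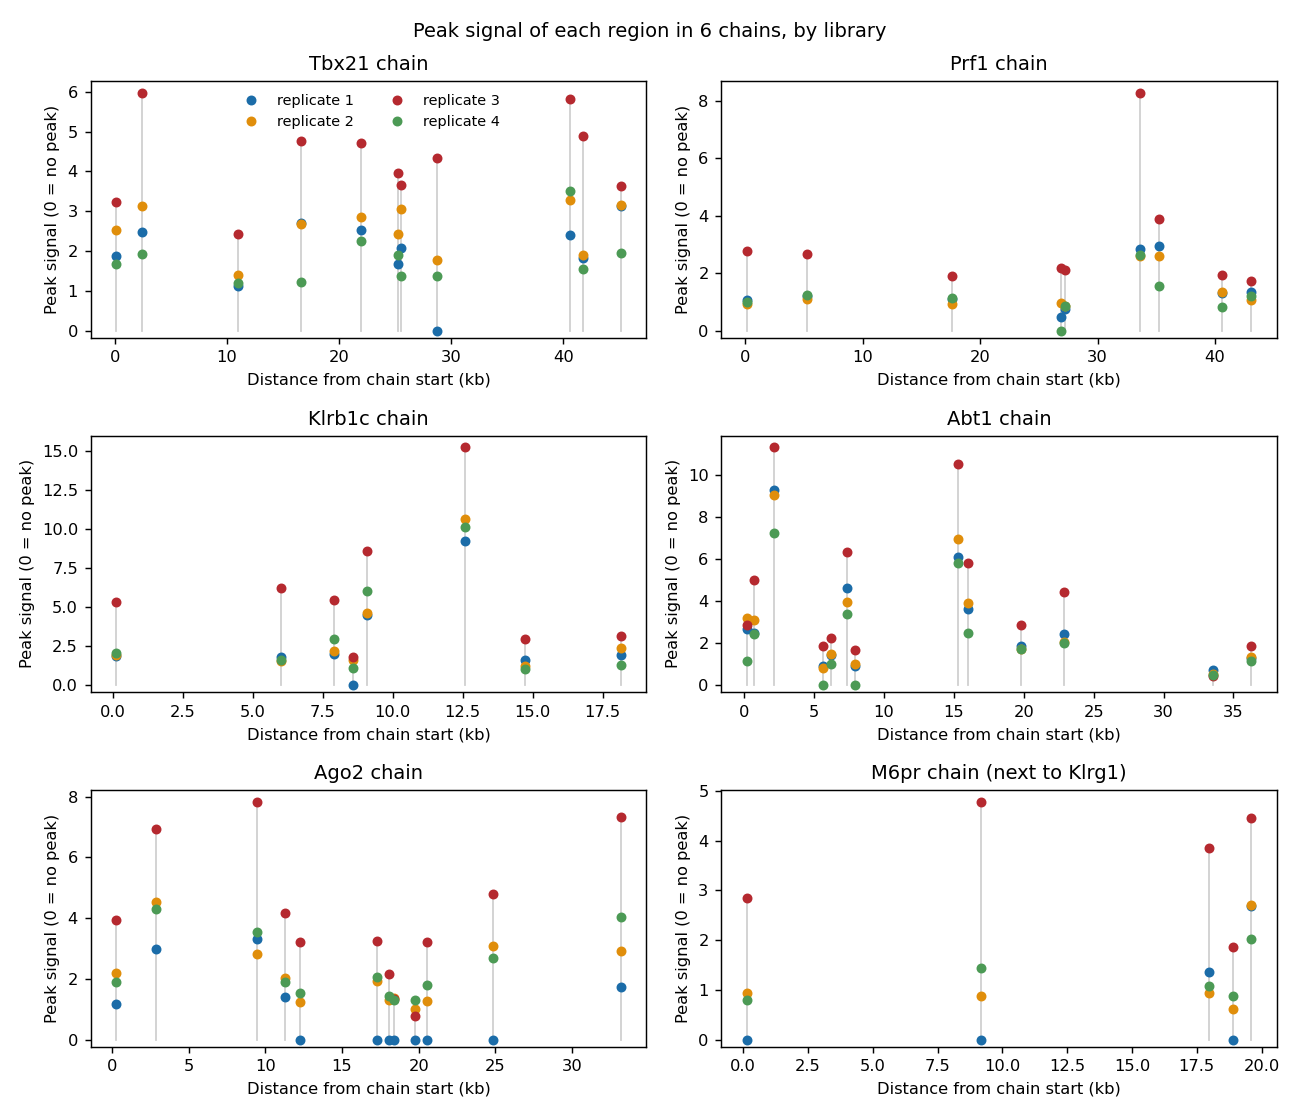
Peak signal of each region (deposited unit, 0 where a library has no peak) against the distance from the chain start (kb) for 6 chains, with the libraries in 4 colours. Replicate 1 is at 0 for 7 successive regions of the Ago2 chain, and replicate 3 is highest at every region of the Tbx21, Prf1 and M6pr chains.

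The T cell genes had the Cd247 chain, lost under 7 of 15 other settings, with a relative signal of 1.22, 1.39, 1.19 and 0.959. The Pou2f1 chain, whose regions all lie inside the Cd247 gene body, had 1.38, 1.90, 3.48 and 3.19. The Fam167b chain in reach of Lck had 1.68, 1.91, 1.98 and 1.38. The H2-Aa chain, at an MHC class II gene of antigen-presenting cells, had 1.91, 2.84, 2.38 and 3.05, with replicate 4 highest. Signal of B cell starts was present in these libraries, as given above, and its part in the H2-Aa chain was not tested.

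Genes of transfer RNA (tRNA), transcribed by RNA polymerase III, formed another group, noticed after the data were seen. They were not excluded by the rule, which used protein-coding starts. A tRNA gene of the RefSeq annotation overlapped 83 chained regions (3.54%), against 0.337% of other distal recurrent regions. Of the 154 autosomal tRNA genes in distal recurrent regions, 88 were in chains. They lay in 18 chains and made up most regions of 11. The Abt1 chain (chr13:23430781-23467200) had tRNA genes in 11 of 13 regions, the Hist1h4h chain in 8 of 9, the Zfp184 chain in 7 of 8, the Trim27 chain in 7 of 10, and the Olfr1423 and Aurkb chains in 6 of 9 and 6 of 7. The first 4 of these are on chromosome 13.

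Regions with tRNA genes were stronger than other chained regions, with a median signal of 3.30 against 1.75, and 94.0% had a peak in all 4 libraries. The 63 distal recurrent tRNA regions outside these chains had a higher median, 4.4. A footprint in 3 or more libraries was found in 96.4%, against 86.3% of other chained regions. The B box (GTTCGANNC), the inner promoter element of tRNA genes, was found anywhere in the region for 61 of the 83, and for 24 of the other chained regions. In the relative signal tRNA regions had medians of 2.84, 2.81, 3.03 and 2.62 in replicates 1 to 4, against 1.43, 1.45, 1.71 and 1.52 for other chained regions. The tRNA regions were higher than the others in each library. In the Fcgr4 chain, within reach of the NK receptor gene Fcgr3, 5 of 6 regions overlapped a tRNA gene, so the count for Fcgr3 rests on tRNA regions. Without the 18 chains that hold a tRNA gene, 349 chains and a signal ratio of 1.63 were left.

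The tRNA sequences of the strongest region in 2 of these chains are shown on the gene's own strand, with the tRNA gene in capitals and 30 bases on either side, since they hold the B box inside the region. They lie at chr13:23432960-23433107 (minus strand) and chr13:23518116-23518257 (plus strand).
Abt1 chain, tRNA-Tyr: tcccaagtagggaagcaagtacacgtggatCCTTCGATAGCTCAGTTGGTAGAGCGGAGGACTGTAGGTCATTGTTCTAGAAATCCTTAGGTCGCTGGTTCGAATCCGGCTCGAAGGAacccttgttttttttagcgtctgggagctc
Hist1h4h chain, tRNA-Ser: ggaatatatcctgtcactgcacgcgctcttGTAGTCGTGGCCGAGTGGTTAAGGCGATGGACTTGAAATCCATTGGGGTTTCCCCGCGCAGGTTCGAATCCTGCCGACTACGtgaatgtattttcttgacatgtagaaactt

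The tRNA-Tyr region had a signal of 9.27, 9.02, 11.3 and 7.23 in replicates 1 to 4, and the tRNA-Ser region 5.25, 5.44, 10.4 and 3.61. Both were highest in replicate 3 and lowest in replicate 4, in values not divided by a library median. The median signal of other distal peaks had the same extremes, at 1.01, 1.06, 1.5 and 0.884 in replicates 1 to 4.

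Libraries differed in which chains they favoured. Of the 367 chains, 214 had their highest relative signal in replicate 3, 77 in replicate 2, 47 in replicate 1 and 29 in replicate 4. The median over chains was 1.38, 1.45, 1.69 and 1.31 in replicates 1 to 4. In the 30 chains at genes of the 4 NK lists it was 1.41, 1.42, 2.06 and 1.48. Replicate 3 exceeded the median of the other libraries in 28 of these 30, with a median ratio of 1.31, and in 270 of all 367, with a median of 1.21. The 11 chains made up mostly of tRNA regions had a median ratio of 1.05. Besides the M6pr chain, the ratio was highest in the Wbp1l chain at 2.58, the Tigit chain, lost under 5 of 15 other settings, at 2.55 and the Lcp1 chain, at the gene of the leukocyte actin-bundling protein L-plastin, at 2.32. It was lowest in the Vmn1r2 chain at 0, the Pced1b chain at 0.421, the Sfi1 chain at 0.457 and the Gm2310 chain at 0.472. Since 1 library against 3 cannot reach 0.05 in an exact test, these are values only. Replicate 3 had the most peaks, and regions without a peak were left out of the divisor of the relative signal. The part of either in these values was not tested.

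**Figure D5:**
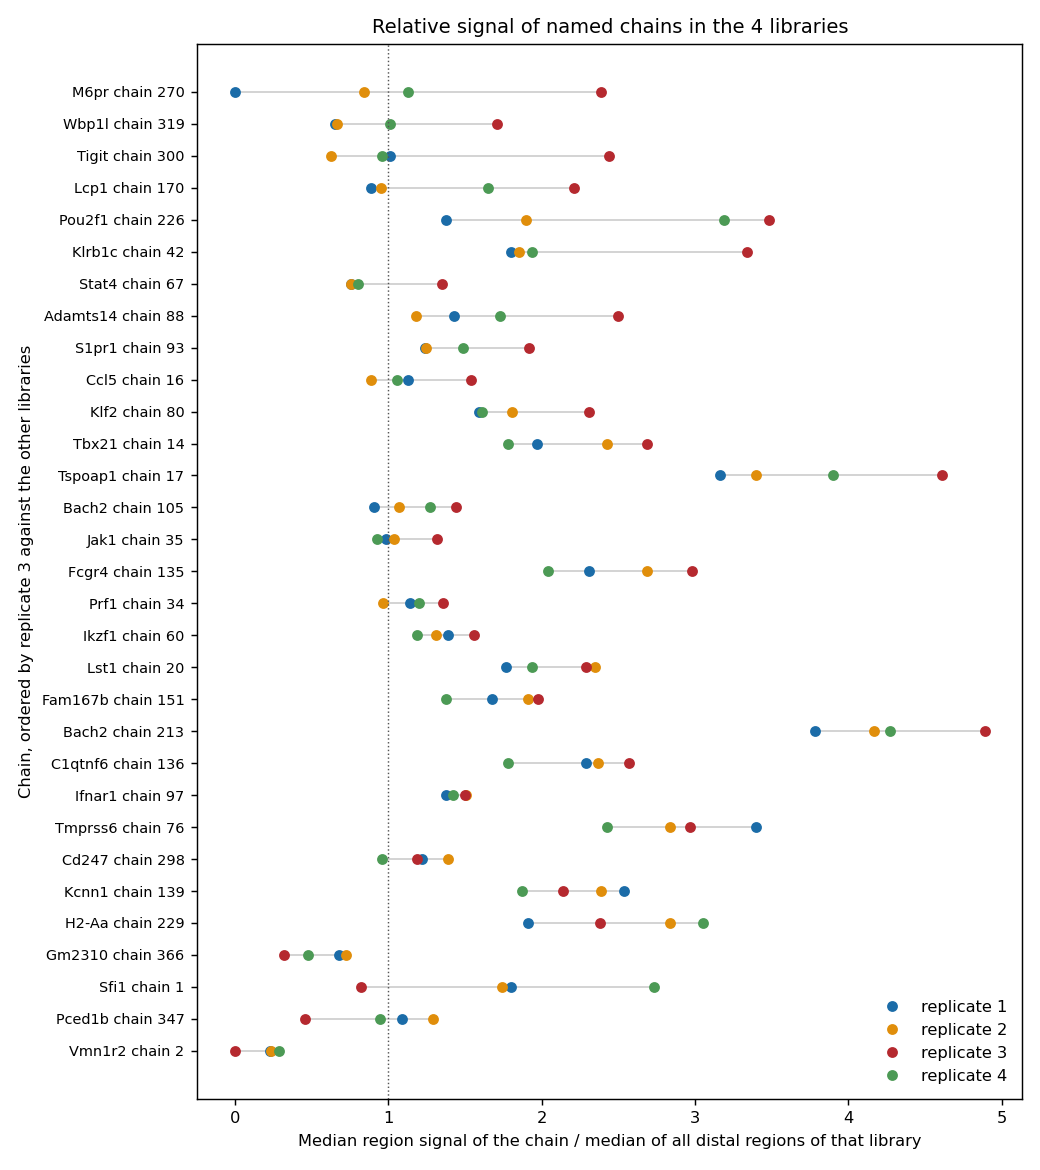
Relative signal (median region signal of the chain divided by the median of all distal recurrent regions in that library) for the chains at listed genes and those with the highest or lowest ratio of replicate 3 to the other libraries, 1 point per library. The Klrb1c chain 42 and the Stat4 chain show replicate 3 alone on the right, at 3.34 and 1.35.

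Missing peaks came in runs in a few chains. In the Ago2 chain (chr15:73137520-73170840), 12 regions in introns of the gene of an Argonaute protein, replicate 1 had no peak in 7 successive regions (chr15:73149701-73162760) over 13.1 kb. The other libraries had signals from 0.789 to 4.81 there, with a median of 1.54. Regions on both sides were present in replicate 1, at 1.42 before and 1.72 after the run. In the Fyn chain, near the gene of a Src family kinase, replicate 4 had no peak in any of 7 regions, while the others had 0.644 to 2.69. Replicate 4 also lacked all 5 regions of the Cd80 and Osr2 chains, which were weaker in the other libraries, at medians of 0.658 and 0.739.

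Most missing peaks left no trace in the deposited base lists. Of chained regions without a peak, a base with a false discovery rate under 0.05 was listed for 24.8% of 157 in replicate 1, 31.8% of 44 in replicate 2, 21.4% of 28 in replicate 3 and 14.2% of 339 in replicate 4. For other distal regions the shares were 26.1%, 28.5%, 17.9% and 10.1%. The share was higher for chained regions in replicates 2, 3 and 4 and lower in replicate 1, and these differences were not tested.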

How the data were processed

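DNase-seq was used from 4 libraries of mouse NK cells. Per the labels, each is a biological replicate, and per the deposited readme texts each file was derived from 1 library's own mm10 alignments, without pooling. For aligner and callers, nothing is given in the sources used here. A signal in an unstated unit accompanies each peak in the authors' lists. The longer of the 2 lists per library was used. The deposited base lists give a false discovery rate, read as a q-value and listed only under 0.05, and the authors' footprints carry a constant p-value of 0.01.

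Peaks on 19 autosomes were merged, filtered and chained as described in the report, with protein-coding transcripts of GENCODE M21. A footprint counted with any overlap of the merged region. Motifs were read in the reference, 150 bp around the centre. Copies were sought with blastn 2.17.0 (word size 40), and overlaps with bedtools 2.31.1. Analyses ran in Python 3.11.15 with pandas 2.3.3, numpy 2.4.6 and scipy 1.17.1. The chaining and the sign-flip test were tested on simulated data. Tests were exact sign-flip permutations over 4 libraries.

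The members, gene lists and motifs were chosen with earlier results of these data known. Named were the 12 chains with most regions, the 6 of highest median signal outside those, up to 4 per NK list and 3 per other list by number of regions, and the 4 with the highest and the 4 with the lowest ratio of replicate 3 to the others. Other chains were picked after their values were seen, namely those with tRNA genes or runs of missing peaks and the Fasl, Srgn and Nfil3 chains. Of 204 listed genes, 6 are not autosomal. Alternatives changed the peak list, presence, gap, chain size, start distance, start annotation, merging and libraries, and are given in the closing section.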

Additional observations from a re-analysis of the deposited data

Results flagged for a closer look

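In 2 of 50 sets of 4 library values tested, 1 library stood far from the other 3, where chance gives about 1 in 20 independent sets. These sets share the same libraries, and some chains were named for their ratio of replicate 3 to the others. The count therefore cannot be judged against that rate. The relative signal of the Klrb1c chain of 8 regions was 3.34 in replicate 3, against 1.80 to 1.94 in the others. The relative signal of the Stat4 chain was 1.35 in replicate 3, against 0.759 to 0.801 in the others. Replicate 3 had the most peaks, and its part in these values was not tested.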

How the results depend on the processing

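The signal ratio of chained to other distal regions stayed above 1 under every alternative run, from 1.46 with the same number of strongest peaks per library to 1.73 with chains of 6 or more. The counts depended on the rule. There were 167 chains with 1009 regions from the shorter peak list, 181 with 1099 for a peak in all 4 libraries and 673 with 4496 for a peak in 2 or more. Gaps of at most 8 kb gave 224 with 1326 and gaps of at most 20 kb 628 with 4271. Chains of 4 or more numbered 749 with 3874 regions, and chains of 6 or more 211. Leaving out 1 library, with a peak in 2 or more of the other 3, gave 400 to 595 chains and 2614 to 3873 regions, a looser rule by construction; the counts passed 1.5 times the main one without replicate 1 (574 chains) and without replicate 4 (595).

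The footprint difference was 2.47 percentage points, and it turned to -0.89 with the shorter peak list (94.5% of chained regions with a footprint in 3 or more libraries), -0.487 with the same number of strongest peaks per library (89.3%) and -4.66 within 5 bins of signal; the cause was not tested. A peak in every library was found for 78.7% with the same number of strongest peaks, 77.8% with gaps of at most 8 kb and 68.1 to 75% with 1 library left out. In the gene body alone, 11 NK list genes had a chain. Chains that hold a tRNA gene, the Sfi1 and Vmn1r2 chains or regions with a copy elsewhere, left out after seeing the data, did not turn the sign of the signal ratio or of the footprint difference. Of the 45 named chains, the shorter list lost 18, a peak in all 4 libraries 16, chains of 6 or more 12, gaps of at most 8 kb 11, the same number of strongest peaks 8, and a start distance over 2.5 kb and starts of every biotype 6 each. Over 15 settings the Cd247 chain was lost under 7, the M6pr chain under 6, the Tigit, Kcnn1, Rnase12 and Gm2310 chains under 5 and the Bach2 chain of 5 regions, the Lcp1, Pced1b and Rin3 chains under 4. No paired analysis was possible because all libraries belong to 1 group and no groups share replicate numbers; the sign-flip tests compare kinds of region within each library. Without read numbers, precision is limited to the spread over 4 libraries.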
